A study of Homo sapiens with 12 samples.

Results

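Glycolysis was examined here through 10 enzyme genes, HK1, HK2, GPI, PFKP, ALDOA, GAPDH, PGK1, ENO1, PKM and LDHA, which were picked by symbol from the 60612 named rows of a gene count table. They cover the path from glucose to lactate: the hexokinases HK1 and HK2, the isomerase GPI, the platelet-type phosphofructokinase PFKP, the aldolase ALDOA, the dehydrogenase GAPDH, the kinase PGK1, the enolase ENO1, the pyruvate kinase PKM and the lactate dehydrogenase LDHA. The table came from 3′ RNA sequencing of CAMA-1, an established oestrogen receptor-positive luminal breast cancer cell line, labelled as wild-type. In the 4 groups, cells received the DMSO vehicle, abemaciclib at 100 nM, fulvestrant at 5 nM or both drugs together, for 5 days by the study's own account. The doses within the combination are not restated in the labels. Each group held 3 libraries, which the labels call biological replicates. Abemaciclib inhibits CDK4 and CDK6, the kinases that phosphorylate the retinoblastoma protein, and fulvestrant binds the oestrogen receptor and leads to its degradation.

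Glycolysis splits glucose into pyruvate in the cytosol and yields ATP and NADH, and LDHA regenerates the NAD that GAPDH consumes by reducing pyruvate to lactate. The hexokinase, phosphofructokinase and pyruvate kinase steps are the ones at which flux is classically controlled, largely through metabolites and enzyme modification rather than transcript level. Many tumours keep these genes high under the control of HIF and MYC, and in breast cancer cells oestrogen is known to raise glucose use. GAPDH and PGK1 are also widely used as reference genes in quantitative PCR. Transcript levels were measured here, not enzyme activity or flux.

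Library totals ran from 3299119 to 5164667 counts. Levels are given as CPM, counts scaled to a common library size, with the trimmed mean of M-values (TMM) as scaling factor, and since 3′ sequencing gives about one read per transcript molecule they were not divided by length. Libraries of the same group differed by a chi-square of 1.85 to 5.34 per gene in 10 of 12 pairs, so no pair was a repeat of one library, but the pairs of fulvestrant replicate 3 with replicates 1 and 2 stood apart at 9.17 and 14.3. Where leaving this library out changed a call of an enzyme gene, or moved a called value by over 1.5 times, the value without it is given beside the result. All 7 luminal markers were detected, with a summed level of 5556 to 5900 CPM in DMSO and 6565 to 7653 CPM in the treated groups. Of 10 markers of basal, stromal, leukocyte and endothelial cells, 5 were at 0 in every library, COL1A2, DCN, CD3E, PECAM1 and CDH5, and the list summed to 17.8 to 21.7 CPM in DMSO, 25.4 to 32.6 CPM with abemaciclib, 29.4 to 37.2 CPM with fulvestrant and 24.1 to 28.6 CPM with the combination, nearly all of it from COL1A1 and COL3A1. Reads of the mitochondrial genome took 12.3% ± 0.295 of all counts in DMSO, 17.9% ± 0.590 with abemaciclib, 18.5% ± 1.80 with fulvestrant and 17.0% ± 1.93 with the combination (SD, n = 3), and their part in the results was not tested. With these transcripts left out of totals and scaling, 6 enzyme genes passed in each comparison with DMSO, as with them.

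Promoters are shown for the 4 enzyme genes that passed the threshold under every treatment, since 3 of them moved down together and 1 moved up. The windows run from upstream to just downstream of a RefSeq transcript start (assembly GRCh38.p14), 5′ to 3′ on the strand of the gene, and capitals mark ACGTG, the core of the hypoxia response element, read on both strands. The HK1 window is chr10:69318814-69319113 and its RefSeq start is 217 bases from that of the MANE Select transcript. The PFKP window is chr10:3067720-3068019, with a start 422 bases away. For GAPDH the window is chr12:6535014-6535313, with a start 747 bases away, inside the gene body. The LDHA window, chr11:18394313-18394612, has the same start as the MANE Select transcript. All 4 lie on the plus strand.
HK1: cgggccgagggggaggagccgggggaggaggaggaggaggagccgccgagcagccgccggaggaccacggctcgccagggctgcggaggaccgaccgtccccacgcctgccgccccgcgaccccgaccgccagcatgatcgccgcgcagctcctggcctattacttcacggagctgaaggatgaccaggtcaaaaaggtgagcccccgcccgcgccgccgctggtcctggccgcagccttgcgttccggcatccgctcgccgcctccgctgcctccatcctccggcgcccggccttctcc
PFKP: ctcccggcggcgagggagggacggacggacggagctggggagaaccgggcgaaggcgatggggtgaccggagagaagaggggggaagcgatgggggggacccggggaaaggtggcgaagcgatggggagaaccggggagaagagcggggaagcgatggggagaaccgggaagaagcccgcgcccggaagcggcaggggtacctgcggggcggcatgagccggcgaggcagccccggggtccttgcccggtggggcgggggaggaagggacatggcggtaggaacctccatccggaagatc
GAPDH: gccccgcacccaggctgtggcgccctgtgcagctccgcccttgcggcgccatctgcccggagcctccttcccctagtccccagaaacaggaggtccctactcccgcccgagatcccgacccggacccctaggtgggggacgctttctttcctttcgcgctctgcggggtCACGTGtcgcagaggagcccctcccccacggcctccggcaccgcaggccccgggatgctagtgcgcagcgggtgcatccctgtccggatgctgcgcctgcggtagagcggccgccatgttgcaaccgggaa
LDHA: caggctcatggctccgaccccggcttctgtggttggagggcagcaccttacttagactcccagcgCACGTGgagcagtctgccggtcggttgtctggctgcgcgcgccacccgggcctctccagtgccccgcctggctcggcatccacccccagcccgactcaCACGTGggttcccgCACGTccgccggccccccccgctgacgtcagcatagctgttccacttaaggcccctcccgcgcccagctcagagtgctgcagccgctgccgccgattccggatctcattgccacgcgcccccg
The LDHA window held ACGTG 5 times, counting both strands, and 4 of these matches came from its 2 copies of CACGTG, the palindromic E-box that MYC proteins recognise, each of which contains the core on either strand. GAPDH had 1 CACGTG and thus 2 matches, and the HK1 and PFKP windows had none. The HK1, PFKP and GAPDH windows all lie within the annotated gene bodies and are not centred on the MANE Select starts. Matches in them, or a lack of matches, therefore do not describe the promoters at those starts. Across the 10 genes, 6 windows held ACGTG against 21.4% of 35116 RefSeq windows of the same length, and 2 held CACGTG against 7.26%. The oestrogen response element (its full palindromic consensus) was in no window of the 10 and in 0.057% of all windows, and the GC box GGGCGG was in 8 of 10 and in 45.0%. Whether these motifs bear on the changes of the genes was not tested.

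Of the 10 genes, 9 had enough counts to be tested. ALDOA was the exception: it was listed at 0 in 11 libraries and at 1 read in fulvestrant replicate 2, although aldolase A is the aldolase of most proliferating cells. A count of 0 allows up to 0.581 to 0.909 CPM, depending on the library. In GENCODE v44, on GRCh38, ALDOA lies at chr16:30064164-30070457, and 100% of the last 500 bases of its MANE Select transcript, the stretch that 3′ reads come from, is shared on the same strand with the gene ENSG00000285043. The authors counted on GENCODE v35, so the overlaps given here may differ from those in the annotation used for counting. Reads in such shared stretches can be left unassigned in counting. Of 280 genes whose last 500 bases are wholly shared in this way, 70.7% had no library over 3 counts, against 36.2% of 17931 genes that are not shared. The counting options were not given in the sources used here and the cause was not tested, so the listed value is not taken as a level of ALDOA.

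With abemaciclib, 2 of the 9 tested genes were higher than with DMSO and 4 were lower, by edgeR's quasi-likelihood test at a Benjamini-Hochberg adjusted p under 0.05 over 11803 genes. Among all genes tested, 41.2% passed in either direction, 20.5% higher and 20.7% lower. Fulvestrant left 1 gene higher and 5 lower, where 51.0% of all genes passed, 25.3% higher and 25.7% lower. The combination also left 1 higher and 5 lower, where 55.2% of all genes passed, 27.7% higher and 27.5% lower. Thus 6 of 9 enzyme genes passed in each comparison, beside 41.2%, 51.0% and 55.2% of all genes, with more lower than higher calls. With abemaciclib, 4 to 6 passed when single libraries were left out. With so few genes the share is not read as a trait of the enzyme genes. The difference in share was not tested. The median log2 fold change of the 9 genes was −0.17 with abemaciclib, −0.26 with fulvestrant and −0.32 with the combination, where the median of all genes was 0.00, 0.01 and 0.01. These 3 comparisons share the DMSO libraries. In bulk counts, lower expression per cell cannot be told apart from a rise in the rest of the RNA, and fewer cells of a type cannot be told apart from less RNA per cell. Scaling by library totals alone shifted the median of all genes by −0.06 with abemaciclib and by 0.11 for the interaction of the drugs, its largest shift, and gave 1 enzyme gene higher of 7 called with abemaciclib.

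**Figure D1:**
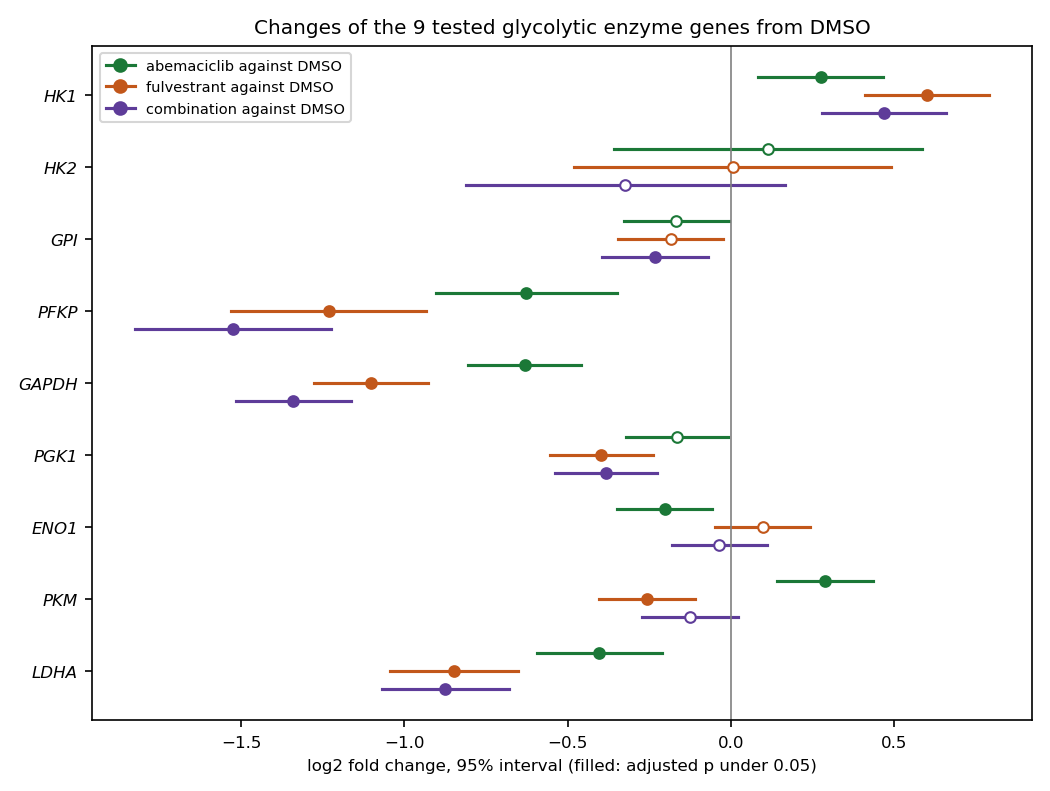
Log2 fold change of the 9 tested enzyme genes (rows, in pathway order) with abemaciclib, fulvestrant or the combination against DMSO, with bars for the 95% interval and filled points for an adjusted p under 0.05. PFKP, GAPDH and LDHA lie left of 0 under all 3 treatments and HK1 lies right of it, while PKM lies right of 0 with abemaciclib and left of it with fulvestrant.

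Adding fulvestrant to abemaciclib lowered 5 of the 9 genes, PFKP, GAPDH, PGK1, PKM and LDHA, where 33.5% of all genes passed, 15.9% higher and 17.7% lower. No enzyme gene was higher at the threshold by edgeR or by DESeq2, whereas 2 genes, HK1 and ENO1, were higher at an unadjusted p under 0.05. Both were also past the adjusted threshold when library totals alone were used, which gave 2 higher of 6 called, or when only the groups compared were fitted, which gave 2 higher of 7. The median change of the 9 genes was −0.41. Adding abemaciclib to fulvestrant moved no enzyme gene past the threshold, by edgeR or by DESeq2, in a comparison where 1.92% of all genes passed, 0.297% higher and 1.63% lower. GAPDH alone had an unadjusted p under 0.05 there, and the median change was −0.13. Without fulvestrant replicate 3, the genes that passed in this comparison rose from 227 to 588, still with 0 of the 9 enzyme genes among them.

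At the entry step are the 2 hexokinases, which trap glucose as glucose 6-phosphate. HK1 passed against DMSO under every treatment and HK2 under none, but a difference between the 2 was not tested. HK1 was measured at 149, 130 and 121 CPM with DMSO, at 158, 160 and 165 CPM with abemaciclib, at 193, 187 and 224 CPM with fulvestrant and at 205, 182 and 167 CPM with the combination. Every treated library lay above every DMSO library, and the fulvestrant and combination libraries overlapped. The log2 fold change against DMSO was 0.27 ± 0.09 (SE) with abemaciclib (adjusted p = 0.0199), 0.60 ± 0.09 with fulvestrant (adjusted p = 4.6e-06) and 0.47 ± 0.09 with the combination (adjusted p = 0.000107). The rise with fulvestrant and with the combination held under all 17 alternative settings run. With fulvestrant it was 0.52 when fulvestrant replicate 3 was left out. The rise with abemaciclib missed the threshold with library totals alone (adjusted p = 0.0779) and when DMSO replicate 2, DMSO replicate 3 or abemaciclib replicate 3 was left out (adjusted p = 0.0672 to 0.104).

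HK2, the inducible hexokinase that is prominent in many glycolytic tumours, was low in these cells. It gave 32 to 66 reads per library, or 11.4 to 12.0 CPM with DMSO, 9.20 to 14.7 CPM with abemaciclib, 7.29 to 14.4 CPM with fulvestrant and 7.77 to 11.1 CPM with the combination. The single-drug libraries overlapped those of DMSO, and the combination libraries lay just below them. No comparison passed, and the 95% interval of the change with the combination ran from −0.81 to 0.16, a width that covers both a fall and a small rise. HK1 made up 91.9% ± 0.804 of the HK1 and HK2 reads with DMSO, 92.7% ± 1.59 with abemaciclib, 94.3% ± 2.21 with fulvestrant and 95.1% ± 0.353 with the combination (SD, n = 3), a share of reads that was not divided by length.

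GPI, which turns glucose 6-phosphate into fructose 6-phosphate, changed little. Its level was 376, 382 and 384 CPM with DMSO, 337, 331 and 349 CPM with abemaciclib, 315, 342 and 348 CPM with fulvestrant and 365, 298 and 310 CPM with the combination. All treated libraries were below the DMSO libraries, and the 3 treated groups overlapped one another. Only the combination passed against DMSO, with a log2 fold change of −0.23 ± 0.08 (adjusted p = 0.0137), and that call was lost without combination replicate 2 (adjusted p = 0.11) or 3 (adjusted p = 0.0664). The changes with abemaciclib, −0.17 ± 0.08 (adjusted p = 0.0882), and with fulvestrant, −0.19 ± 0.08 (adjusted p = 0.0512), were of like size. Both passed with library totals alone (adjusted p = 0.0173 and 0.0097), and the fulvestrant change also passed without fulvestrant replicate 3 (adjusted p = 0.0219).

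PFKP had the widest range of the 9 genes. Phosphofructokinase commits the sugar to glycolysis, and PFKP is one of 3 isozyme genes that can form the tetramer, with the liver type PFKL and the muscle type PFKM. PFKP stood at 46.0, 38.0 and 34.7 CPM with DMSO, at 27.6, 24.9 and 23.5 CPM with abemaciclib, at 15.1, 17.5 and 17.5 CPM with fulvestrant and at 12.8, 13.6 and 14.4 CPM with the combination. The groups stepped down in that order with no overlap between any of them, although the last step, from fulvestrant to the combination, did not pass (adjusted p = 0.519). Against DMSO, PFKP fell 1.54-fold with abemaciclib (log2 −0.63 ± 0.14, adjusted p = 0.000503), 2.35-fold with fulvestrant (log2 −1.23 ± 0.15, adjusted p = 5.53e-08) and 2.88-fold with the combination (log2 −1.53 ± 0.15, adjusted p = 9.61e-10). It was also 1.86-fold lower with the combination than with abemaciclib (log2 −0.90 ± 0.15, adjusted p = 3.59e-05). In GENCODE v44, 24.0% of the last 500 bases of PFKP is shared on the same strand with another gene, ENSG00000278419. These counts were small, at 53 to 200 reads per library.

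The other phosphofructokinases did not follow PFKP. PFKL was measured at 49.3, 52.8 and 50.8 CPM with DMSO and at 83.3, 77.3 and 81.4 CPM with fulvestrant, a rise of 0.66 ± 0.10 on the log2 scale (adjusted p = 2.42e-06), and it rose by 0.45 ± 0.10 with the combination (adjusted p = 0.00028). PFKM rose with abemaciclib, from 19.3 ± 1.10 to 25.9 ± 2.84 CPM (SD, n = 3, log2 fold change 0.42 ± 0.14, adjusted p = 0.0212), and its changes with fulvestrant and the combination, 0.04 and −0.06, did not pass. PFKP accordingly supplied 35.9% ± 3.77 of the reads of the 3 genes with DMSO, 22.9% ± 1.48 with abemaciclib, 14.2% ± 1.40 with fulvestrant and 13.3% ± 1.16 with the combination (SD, n = 3).

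**Figure D2:**
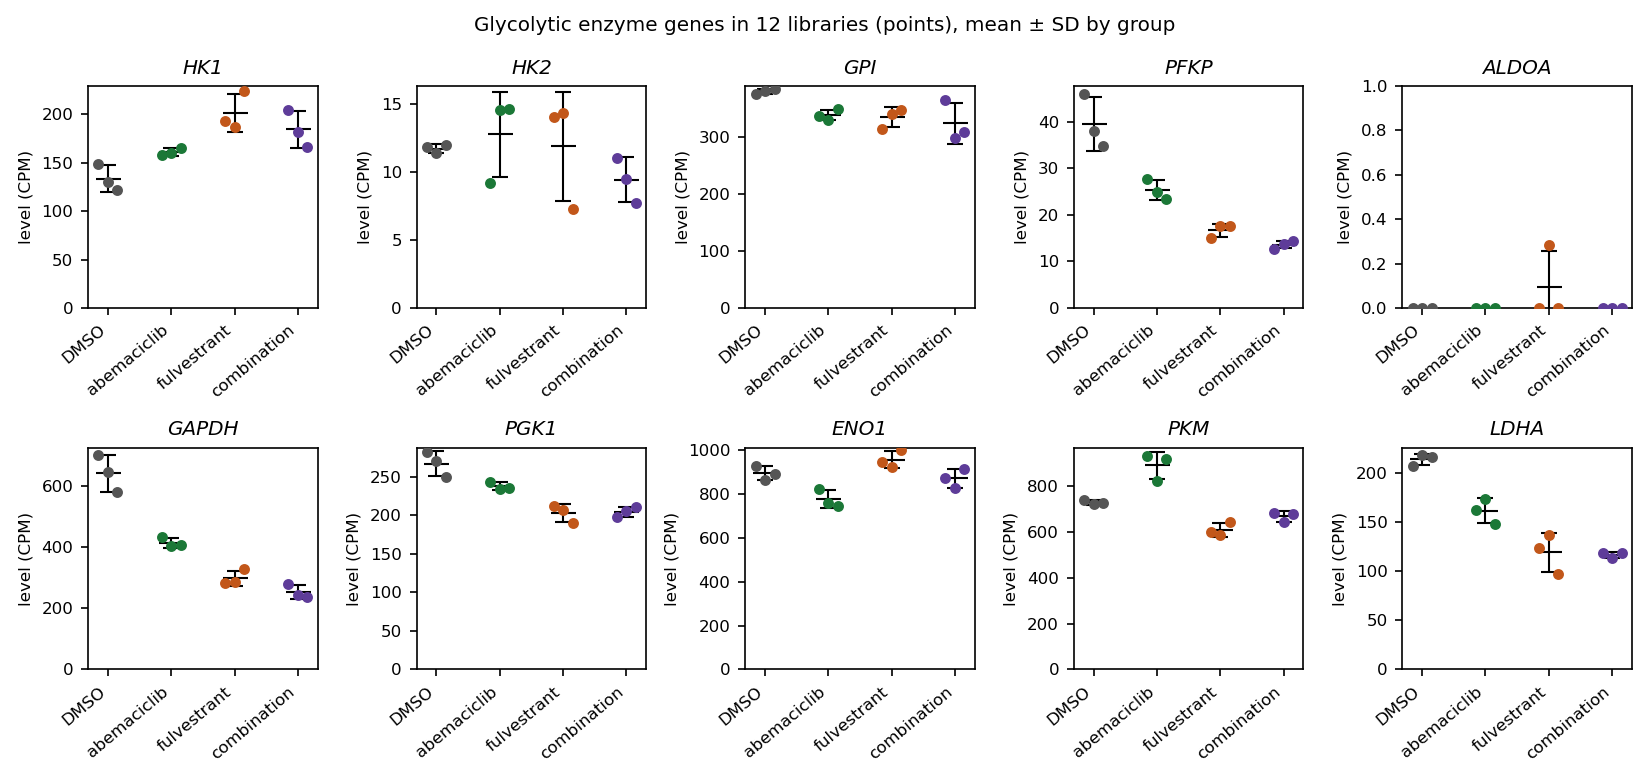
Level in CPM of each of the 10 enzyme genes (panels) in each of the 12 libraries (points), by group, with the mean and SD. PFKP, GAPDH and LDHA step down from DMSO to fulvestrant, HK1 is higher in all treated groups, PKM is highest with abemaciclib, and ALDOA is at 0 but for 1 read in 1 library.

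GAPDH oxidises glyceraldehyde 3-phosphate and makes the NADH of glycolysis. It was measured at 702, 647 and 581 CPM with DMSO, at 433, 404 and 407 CPM with abemaciclib, at 282, 287 and 327 CPM with fulvestrant and at 280, 243 and 239 CPM with the combination. As for PFKP, the groups stepped down without overlap. GAPDH was 1.55-fold lower with abemaciclib than with DMSO (log2 −0.63 ± 0.08, adjusted p = 7.28e-07), 2.15-fold lower with fulvestrant (log2 −1.10 ± 0.09, adjusted p = 1.58e-11) and 2.53-fold lower with the combination (log2 −1.34 ± 0.09, adjusted p = 2.43e-13). The combination was 1.63-fold below abemaciclib alone (log2 −0.71 ± 0.09, adjusted p = 1.93e-07), and the step from fulvestrant to the combination, −0.24 ± 0.09, did not pass (adjusted p = 0.216). All 4 calls held under all 17 alternative settings. The table lists 62 rows named as GAPDH pseudogenes, and together they held 46 reads, 0.216% of the GAPDH reads, so nearly all reads were assigned to the gene itself. A gene on the opposite strand, ENSG00000269968, covers 84.4% of the last 500 bases of GAPDH in GENCODE v44, and whether strand was used in counting is not given in the sources used here.

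PGK1, which makes the first ATP of the pathway, fell less. Its libraries were at 282, 270 and 250 CPM with DMSO, at 244, 234 and 236 CPM with abemaciclib, at 212, 207 and 190 CPM with fulvestrant and at 198, 206 and 211 CPM with the combination. Treated libraries all lay below those of DMSO, and the fulvestrant and combination libraries overlapped. The fall was 1.32-fold with fulvestrant (log2 −0.40 ± 0.08, adjusted p = 9.24e-05) and 1.30-fold with the combination (log2 −0.38 ± 0.08, adjusted p = 0.000114). With abemaciclib the change was −0.17 ± 0.08 (adjusted p = 0.0821). The combination was also lower than abemaciclib alone, by −0.22 ± 0.08 (adjusted p = 0.0287), a call that was lost in 7 of 17 alternative settings, 5 of them the omission of a single library, abemaciclib replicate 1, 2 or 3 or combination replicate 1 or 2 (adjusted p = 0.0567 to 0.0993).

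ENO1, the enolase that forms phosphoenolpyruvate, stayed near its DMSO level. Its level ran from 863 to 928 CPM with DMSO, from 747 to 825 CPM with abemaciclib, from 926 to 999.8 CPM with fulvestrant and from 830 to 915 CPM with the combination. The abemaciclib libraries lay below all others, and the remaining groups overlapped DMSO. The fall with abemaciclib was −0.20 ± 0.07 on the log2 scale (adjusted p = 0.0234), and it missed the threshold without a filter on low counts (adjusted p = 0.0789) or when DMSO replicate 1 or 3 or abemaciclib replicate 2 or 3 was left out (adjusted p = 0.0633 to 0.109). With fulvestrant the change was 0.10 ± 0.07 (95% interval −0.05 to 0.24), and with the combination −0.04 ± 0.07 (95% interval −0.18 to 0.11).

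PKM was the one enzyme gene whose calls against DMSO went in opposite directions. It encodes pyruvate kinase, whose M1 and M2 isoforms come from alternative exons that a gene count does not separate. Its libraries were at 740, 720 and 726 CPM with DMSO, at 930, 820 and 916 CPM with abemaciclib, at 598, 586 and 644 CPM with fulvestrant and at 683, 641 and 679 CPM with the combination. The abemaciclib libraries were above all others, and the fulvestrant and combination libraries were below those of DMSO. PKM rose by 0.29 ± 0.07 on the log2 scale with abemaciclib (adjusted p = 0.00206) and fell by 0.26 ± 0.07 with fulvestrant (adjusted p = 0.00387). With the combination it was −0.13 ± 0.07 from DMSO (adjusted p = 0.138) and −0.41 ± 0.07 from abemaciclib alone (adjusted p = 4.8e-05). All 3 calls held under all 17 alternative settings.

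LDHA, which turns pyruvate into lactate, fell under every treatment. It was measured at 208, 219 and 216 CPM with DMSO, at 163, 174 and 149 CPM with abemaciclib, at 124, 137 and 97.8 CPM with fulvestrant and at 119, 113 and 119 CPM with the combination. DMSO libraries were highest, abemaciclib libraries came next, and the fulvestrant and combination libraries overlapped below them. LDHA was 1.32-fold lower with abemaciclib (log2 −0.40 ± 0.09, adjusted p = 0.000997), 1.80-fold lower with fulvestrant (log2 −0.85 ± 0.10, adjusted p = 2.33e-08) and 1.83-fold lower with the combination (log2 −0.87 ± 0.09, adjusted p = 9.88e-09). The combination was 1.39-fold below abemaciclib alone (log2 −0.47 ± 0.10, adjusted p = 0.000322) and differed from fulvestrant by −0.03 (95% interval −0.22 to 0.17). Fulvestrant replicate 3 was the lowest of the 12 libraries, and without it the fulvestrant fall was 0.72 on the log2 scale. LDHB, the other common subunit of the tetramer, was listed at 1 read over all libraries, with 47.6% of its last 500 bases shared with another gene on the same strand, and it was singled out after its value was seen.

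The interaction compares the effect of abemaciclib in the presence of fulvestrant with its effect alone. Of all genes, 21.1% passed, 9.49% positive and 11.6% negative, and among the 9 enzyme genes 2 were positive and 1 negative, with a median of 0.12. With library totals alone the share of positive values among all called genes moved from 44.9% to 61.5%. GAPDH had an interaction of 0.40 ± 0.12 (adjusted p = 0.0183) and LDHA one of 0.38 ± 0.13 (adjusted p = 0.0447): abemaciclib lowered both on its own, and changed them by −0.24 and −0.03 in the presence of fulvestrant. HK1 had an interaction of −0.41 ± 0.13 (adjusted p = 0.0261), with an abemaciclib effect of 0.27 alone and −0.13 with fulvestrant. PFKP had a value of like size to that of LDHA, 0.33 ± 0.21, that did not pass (adjusted p = 0.281). All 3 calls depended on the setting. The LDHA call held in 9 of 22 settings and was lost with DESeq2 (adjusted p = 0.0801), GAPDH held in 18 of 22 and HK1 in 15 of 22. GAPDH was lost without DMSO replicate 1, abemaciclib replicate 2, fulvestrant replicate 1 or combination replicate 1 (adjusted p = 0.0537 to 0.0758), and HK1 with library totals alone (adjusted p = 0.108) and without DMSO replicate 2 or 3, abemaciclib replicate 2 or 3 or combination replicate 2 or 3. Among the omissions, LDHA was kept only in those of abemaciclib replicate 2 and fulvestrant replicate 2. Without fulvestrant replicate 3 its interaction was 0.25 (adjusted p = 0.103).

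Of 24 other isozyme and step genes, 8 were tested, and 2 were higher and 1 lower with abemaciclib, 1 and 1 with fulvestrant, and 2 and 3 with the combination. TPI1, the triose phosphate isomerase, was among the lower ones under every treatment. It was measured at 202, 179 and 186 CPM with DMSO, at 147, 150 and 155 CPM with abemaciclib, at 144, 154 and 138 CPM with fulvestrant and at 143, 122 and 138 CPM with the combination, so the DMSO libraries stood above all treated ones. Its log2 fold change was −0.33 ± 0.08 (adjusted p = 0.00231), −0.38 ± 0.08 (adjusted p = 0.000384) and −0.49 ± 0.08 (adjusted p = 1.33e-05) in that order. PGAM1, the mutase between PGK1 and enolase, was listed at 2.73 CPM with DMSO and fell by 1.22 on the log2 scale with the combination. ALDOC, the brain-type aldolase, was listed at 4.45 CPM and fell by 0.89. Both are outside the rule for named genes on account of their low counts. PGAM1 held 108 reads over all libraries, beside 12117 for PGK1 and 46358 for ENO1. The cause was not tested, so its listed value may not be its level. Together the 10 enzyme genes took 0.338% ± 0.0118 of all reads with DMSO, 0.295% ± 0.0112 with abemaciclib, 0.270% ± 0.0146 with fulvestrant and 0.268% ± 0.00498 with the combination (SD, n = 3).

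**Figure D3:**
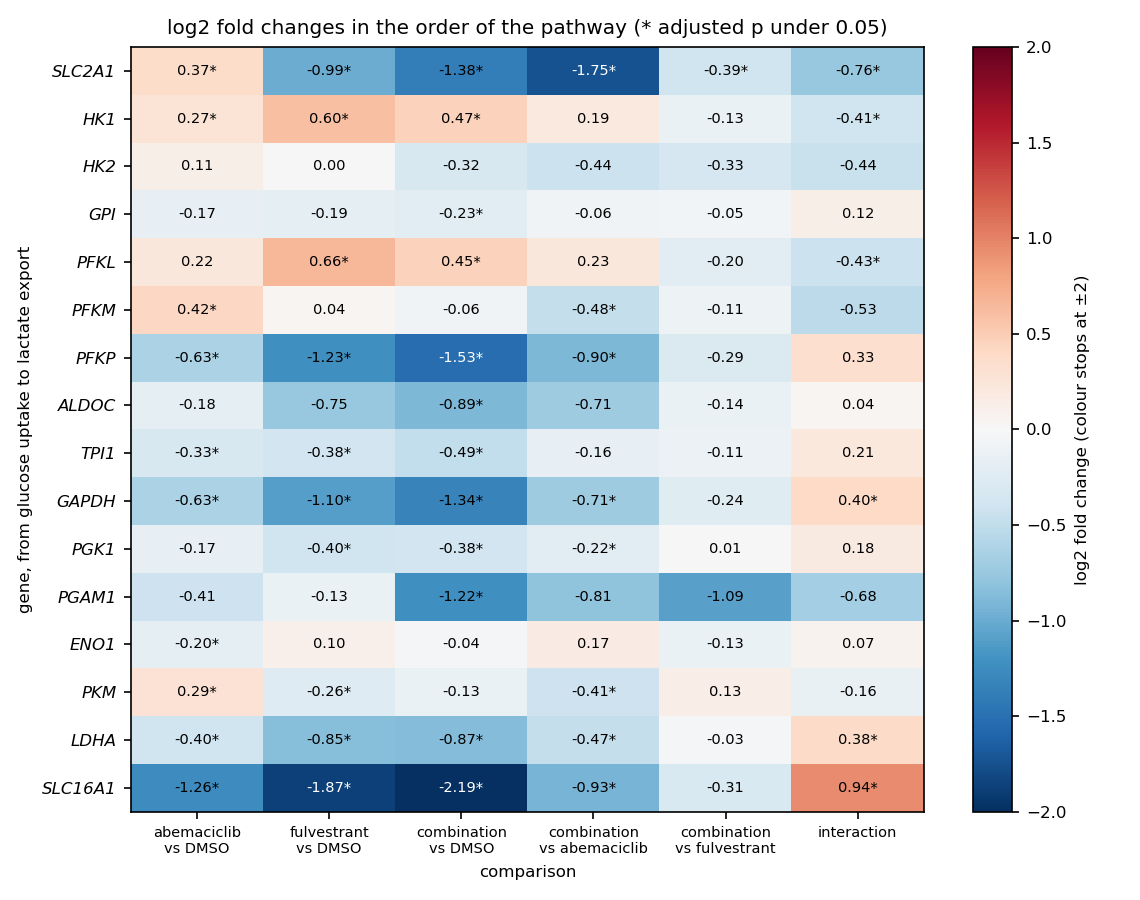
Log2 fold changes of enzyme and transporter genes (rows, from glucose uptake by SLC2A1 to lactate export by SLC16A1) in 5 comparisons and the interaction (columns), with an asterisk for an adjusted p under 0.05. The upper steps hold rises (HK1, PFKL) beside falls (PFKP), GAPDH and LDHA are lower in the first 4 columns, and SLC2A1 rises with abemaciclib (0.37) and falls with fulvestrant (−0.99).

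At the ends of the path, the main lactate carrier fell under every treatment, as LDHA did. The glucose carrier SLC2A1 rose with abemaciclib and fell with fulvestrant. Other glucose carriers of the list did not fall with fulvestrant. SLC2A8, SLC2A10 and SLC2A13 rose by 0.47, 0.55 and 1.42 on the log2 scale, and SLC2A6 did not pass (0.08). Of 15 transport genes, 8 were tested, with 3 higher and 2 lower with abemaciclib, 4 and 3 with fulvestrant and 3 and 3 with the combination. SLC2A1, the glucose carrier GLUT1, was measured at 142, 135 and 119 CPM with DMSO, at 173, 158 and 180 CPM with abemaciclib, at 71.7, 66.8 and 60.9 CPM with fulvestrant and at 51.2, 51.7 and 48.9 CPM with the combination. No group overlapped another. The log2 change was 0.37 ± 0.09 with abemaciclib (adjusted p = 0.00142), −0.99 ± 0.09 with fulvestrant (adjusted p = 1.05e-09) and −1.38 ± 0.10 with the combination (adjusted p = 1.3e-12), and the combination was below fulvestrant alone by 0.39 ± 0.10 (adjusted p = 0.0347). SLC16A1, the lactate carrier MCT1, went from 55.3 ± 0.207 CPM with DMSO to 23.0 ± 4.04 CPM with abemaciclib, 15.1 ± 2.87 CPM with fulvestrant and 12.1 ± 1.40 CPM with the combination (SD, n = 3), falls of 1.26, 1.87 and 2.19 on the log2 scale (adjusted p at most 4.26e-08). TXNIP, whose protein restrains glucose uptake, rose by 1.54, 2.55 and 2.52 (adjusted p at most 1.44e-10).

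Of the 4 tested enzymes that set fructose 2,6-bisphosphate, the activator of phosphofructokinase, 3 were higher with abemaciclib, 2 with fulvestrant and 2 with the combination. TIGAR, which removes that activator, rose by 0.92 (adjusted p = 0.00145), 1.24 (adjusted p = 2.6e-05) and 1.14 (adjusted p = 5.67e-05) on the log2 scale. PFKFB3, which makes it, rose by 0.73 with abemaciclib and changed by −0.22 with fulvestrant (adjusted p = 0.17). PFKFB2, of the same kinase family as PFKFB3, rose by 0.50 with abemaciclib (adjusted p = 0.0433) and by 0.76 with fulvestrant (adjusted p = 0.00196). Of 13 tested genes of pyruvate entry into mitochondria, 3 were higher and 4 lower with abemaciclib, 3 and 4 with fulvestrant, and 2 and 4 with the combination. PDP1, the phosphatase that activates pyruvate dehydrogenase, rose by 0.44 (adjusted p = 0.00125), 1.64 (adjusted p = 9.45e-14) and 1.51 (adjusted p = 3.84e-13). MPC1, a subunit of the mitochondrial pyruvate carrier, changed by −0.68 (adjusted p = 0.000517), −0.34 (adjusted p = 0.0511) and −0.49 (adjusted p = 0.00535). DLAT, the E2 subunit of pyruvate dehydrogenase, changed by −0.20 (adjusted p = 0.32), −0.71 (adjusted p = 0.000853) and −0.49 (adjusted p = 0.0108). Of 20 genes of the tricarboxylic acid cycle, all tested, 7 were higher and 4 lower with abemaciclib, and 5 were higher and 6 lower with fulvestrant and again with the combination. Among them IDH1, the cytosolic isocitrate dehydrogenase, rose by 0.72, 1.22 and 1.14. Of 5 tested gluconeogenic genes, 3 were lower with abemaciclib, FBP1 (−0.88), PCK2 (−0.52) and SLC37A4 (−0.49). Only PCK2 was lower with fulvestrant (−0.69) and with the combination (−1.07). With fulvestrant FBP1 changed by 0.25 (adjusted p = 0.0774) and SLC37A4 by −0.15 (adjusted p = 0.54), and neither passed with the combination.

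In the side branches fed by glycolytic intermediates, PHGDH fell further than any of the enzyme genes under every treatment. Of 15 tested genes of the glycogen, hexosamine, glycerol phosphate and serine branches, 5 were lower and 2 higher with abemaciclib, 9 and 2 with fulvestrant, and 8 and 2 with the combination. PHGDH, which opens serine synthesis from 3-phosphoglycerate, went from 40.3 ± 3.35 CPM with DMSO to 9.21 ± 1.47 CPM with abemaciclib, 4.32 ± 2.15 CPM with fulvestrant and 2.29 ± 0.748 CPM with the combination (SD, n = 3), falls of 2.12, 3.18 and 4.09 on the log2 scale (adjusted p at most 1.49e-09). SHMT2, the mitochondrial enzyme that turns serine into glycine, fell by 0.93, 1.25 and 1.41 (adjusted p at most 1.2e-05). Of 8 tested genes of the pentose phosphate pathway, 3 were higher and 1 lower with abemaciclib, 2 and 1 with fulvestrant, and 2 and 2 with the combination. TKT, the transketolase that links it back to glycolysis, fell by 0.71, 1.11 and 1.01 on the log2 scale.

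HIF activates many glycolytic genes together with other genes. In the HIF list used here, which leaves out the glycolytic enzymes and SLC2A1, the higher calls outnumbered the lower ones. Of 22 tested HIF subunits, regulators and targets, among them PFKFB4, which is also counted with the fructose 2,6-bisphosphate enzymes above, 11 were higher with abemaciclib, 13 were higher and 1 lower with fulvestrant, and 13 were higher and 2 lower with the combination. Among all genes tested, 20.5%, 25.3% and 27.7% were higher and 20.7%, 25.7% and 27.5% lower, in that order. NDRG1 rose by 0.83, 2.99 and 2.95 on the log2 scale (adjusted p at most 2.02e-08) and ANKRD37 by 1.12, 3.01 and 2.58 (adjusted p at most 2.44e-07). CA12 rose by 0.56 with abemaciclib (adjusted p = 5.41e-07) and fell by 0.40 with fulvestrant (adjusted p = 5.35e-05). HIF1A itself changed by −0.34, 0.09 and 0.07, none past the threshold. BNIP3, P4HA1 and ERO1A passed neither with abemaciclib (0.09, 0.12 and −0.23) nor with fulvestrant (−0.03, 0.02 and −0.31). The higher calls include regulators as well as targets, VHL with each single drug and EGLN3 with fulvestrant. SLC2A1, also a HIF target but counted with the transport genes, changed by 0.37 with abemaciclib and −0.99 with fulvestrant, and fell with the combination. The median over the 22 genes was 0.54, 0.54 and 0.61, beside 0.00, 0.01 and 0.01 for all genes.

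**Figure D4:**
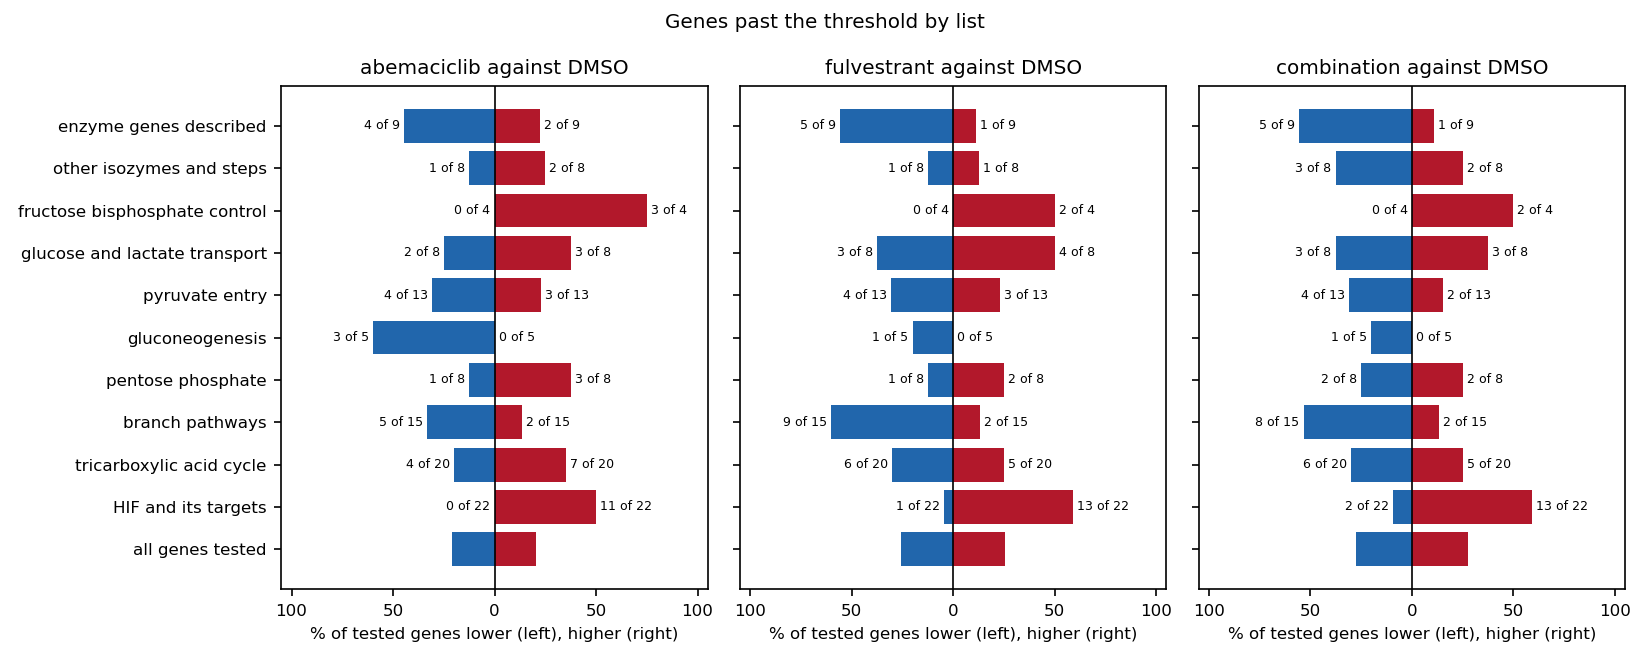
Percentage of tested genes past the threshold, lower to the left and higher to the right, for each gene list (rows) in the 3 comparisons with DMSO (panels), with counts beside the bars and all 11803 tested genes in the lowest row. The enzyme genes lean to the lower side, with 4, 5 and 5 of 9, and the HIF list to the higher side, with 11, 13 and 13 of 22.

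As reference genes, GAPDH and PGK1 were compared with 14 others from outside glycolysis. With fulvestrant, log2 fold changes of the 14 ran from −1.59 for HPRT1 to 0.72 for ACTB, and 6 were lower and 3 higher. With abemaciclib they ran from −1.05 for HPRT1 to 0.76 for ACTB, with 4 lower and 3 higher, and with the combination from −1.59 for HPRT1 to 0.50 for ACTB, with 7 lower and 3 higher. RPLP0, a ribosomal protein gene, fell by 1.09 with fulvestrant (adjusted p = 2.74e-12), close to the −1.10 of GAPDH. B2M and TBP did not pass under any treatment, with changes of 0.18, 0.09 and 0.19 for B2M and −0.22, −0.28 and −0.20 for TBP, whose low counts gave wide intervals.

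**Figure D5:**
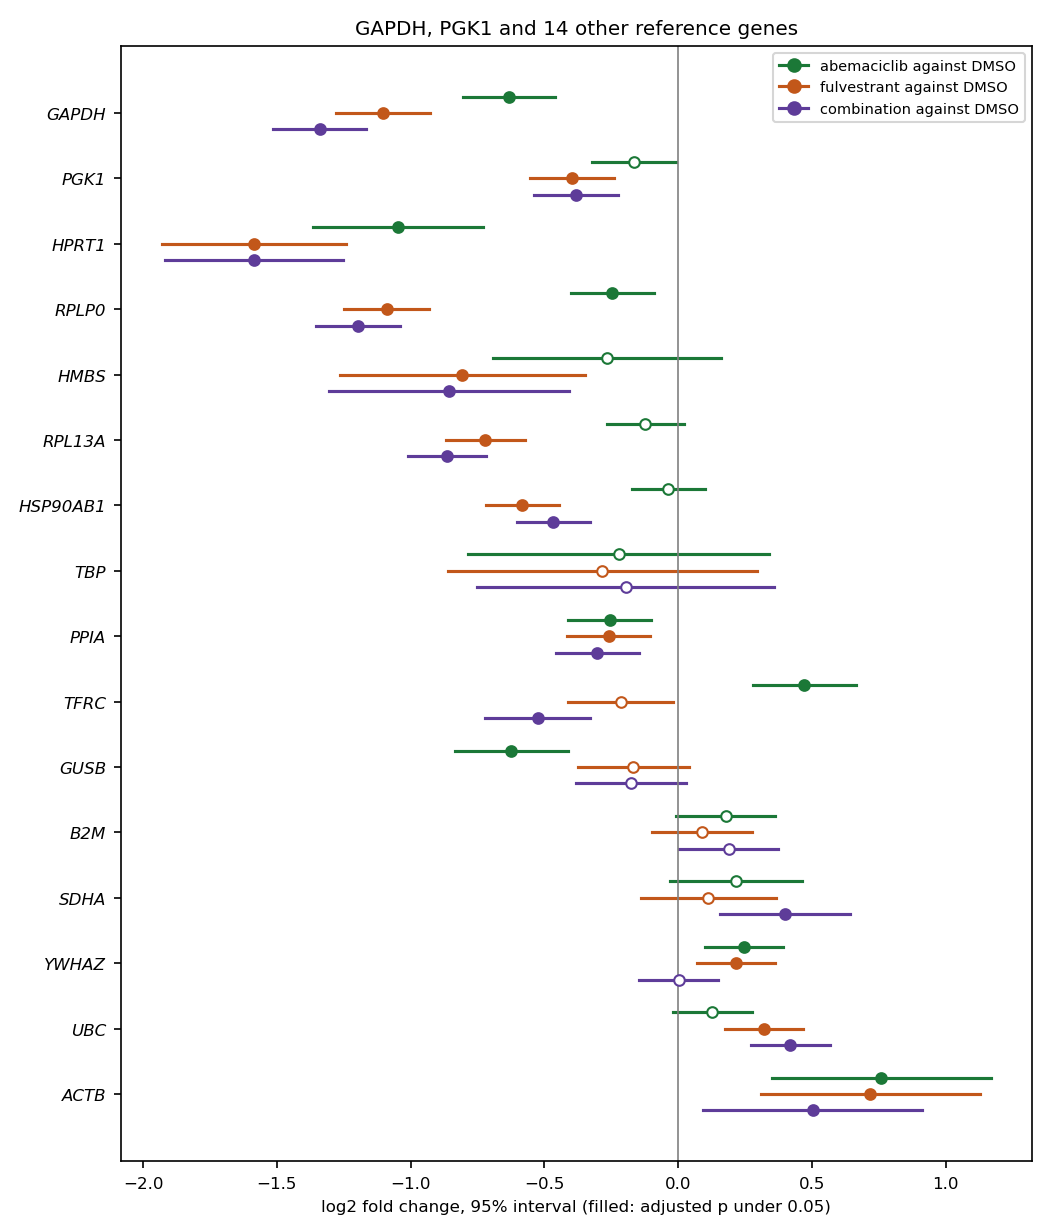
Log2 fold change with 95% interval of GAPDH, PGK1 and 14 other reference genes (rows, the 14 ordered by their change with fulvestrant) under the 3 treatments against DMSO, filled where the adjusted p is under 0.05. GAPDH lies at −0.63, −1.10 and −1.34, HPRT1 lies further to the left, and ACTB lies on the other side of 0. RPLP0 is close to GAPDH with fulvestrant (−1.09) but not with abemaciclib (−0.25).

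The genes most like PFKP and GAPDH were sought as the tested genes with the smallest root mean square difference over the 3 log2 changes of group means from DMSO, with a pseudocount of 1 CPM. Closest to PFKP were AC107956.1 (0.034), LMNB2 (0.036), a nuclear lamina gene, and SRSF2 (0.048), a splicing factor gene. Closest to GAPDH were ITGAE (0.044), WDR43 (0.057) and TRMT6 (0.060). The measure rests on 4 group means, and many genes can come this close among 11803.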

How the data were processed

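RNA was extracted from CAMA-1 cells in 4 groups of 3, and libraries were made with a 3′ mRNA kit (QuantSeq FWD). The authors describe trimming with BBDuk, alignment to hg38 by STAR and gene counting by featureCounts 2.0.1 on a GENCODE annotation. The deposited values are raw counts, not normalised, and options for strand, overlapping genes and multiply mapped reads are not given in the sources used here. Of 60656 rows, 44 had no name and held 0 reads.

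Genes were kept by edgeR's filterByExpr (at least 10 counts, total at least 15), which left 11803. One model of 4 group means was fitted with TMM factors and robust quasi-likelihood in edgeR 4.0.16 (R 4.3.3), with the Benjamini-Hochberg adjustment over all tested genes and a threshold of 0.05. DESeq2 1.42.0, the tool of the study, was an alternative, beside other scalings, filters, omissions of libraries and a replicate block. The scripts were tested on simulated data. The members and lists were chosen with earlier results of these data known. All 10 enzyme genes were named in every comparison. From each other list, at most 3 genes per comparison were named. These had passed the threshold with the largest change, at least 10 CPM in a group compared and no overlap between libraries. Most genes named for 1 comparison were given in the others, and some genes outside this rule were named as well. Gene positions and overlaps came from GENCODE v44, a later release than the one used for counting, and promoters from RefSeq, where all 10 members matched. With 3 libraries a group an exact permutation test of a single value cannot go below p = 0.1, so the tests rest on the model across genes. Intervals from counts cover counting error and spread between libraries.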

Additional observations from a re-analysis of the deposited data

Results flagged for a closer look

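For 3 enzyme genes the effect of abemaciclib passed as different in the presence of fulvestrant, by edgeR's interaction term with adjustment over all genes. All 3 calls depended on the setting. HK1 had an interaction of −0.4053 on the log2 scale (adjusted p = 0.0261), from 0.27 alone to −0.13 with fulvestrant. GAPDH had 0.3958 (adjusted p = 0.0183), from −0.63 to −0.24, and LDHA 0.3790 (adjusted p = 0.0447), from −0.40 to −0.03. Without fulvestrant replicate 3 the LDHA interaction was 0.25 (adjusted p = 0.103), and the LDHA call held in 9 of 22 settings. The GAPDH call held in 18 of 22 and the HK1 call in 15 of 22. Among all genes 21.1% had such a call. The groups of 3 libraries are too small for a test of outlying libraries.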

How the results depend on the processing

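Of 963 values of single enzyme genes under another setting, 897 kept their direction and their side of the threshold, 42 fell below it, 11 rose above it and 13 changed sign, all 13 in changes that did not pass in either setting. For HK2 with fulvestrant against DMSO the change was −0.001509 with RLE factors, −0.05525 with library totals alone, −0.004722 with at least 10 counts in every library and −0.00163 with the replicate block, and −0.1462 to 0.2768 when single libraries were left out. For the combination against fulvestrant, LDHA was 0.02384 with library totals alone, and over omissions of a library LDHA ran from −0.1522 to 0.08174, GPI from −0.1423 to 0.003056 and PGK1 from −0.03132 to 0.04147. ENO1 with the combination against DMSO ran from −0.06759 to 0.004275. The genes that passed between the combination and fulvestrant numbered 91 with at least 10 counts in every library, 125 with only the groups compared and 146 to 588 over omissions, the highest without fulvestrant replicate 3. The median change of the enzyme genes moved to −0.2315 with abemaciclib, −0.3629 for the combination against abemaciclib, −0.08748 for the combination against fulvestrant and 0.2277 for the interaction with library totals alone. It was −0.3228 for the combination against abemaciclib and −0.2688 for the combination against DMSO with no filter on low counts, which adds ALDOA, and −0.2961 for the latter with upper-quartile factors. Over omissions it ran from −0.4265 to −0.3088 for the combination against abemaciclib, −0.3519 to −0.1977 against DMSO and −0.1566 to −0.06978 against fulvestrant. Enzyme genes past the threshold numbered 4 to 6 over omissions with abemaciclib, with 4 when DMSO replicate 3 or abemaciclib replicate 3 was left out, and 1 to 3 for the interaction. The cause of these shifts was not tested. Replicate numbers did not pair the libraries: of 18 same-numbered pairs, 3 had a correlation of deviations over 0.1, with a range of −0.244 to 0.135, and the replicate block left the numbers of enzyme genes called at 6, 6, 6, 5, 0 and 3. Depth limited HK2 and PFKP most, and ALDOA was not measurable in these counts.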
